A study of Arabidopsis thaliana with 6 samples.

Results

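X8-domain genes encode small secreted or membrane-anchored proteins with a cysteine-rich carbohydrate-binding module. The genes described here were taken by locus: 10 X8-domain loci of Arabidopsis thaliana were listed, and 5 of them have a probe set that the platform's probe table pairs with that gene alone. These are AT1G78520, AT2G30933, AT4G05430, AT1G29380 and AT5G35740, each with 1 probe set. The other 5 loci are the plasmodesmata callose-binding protein genes PDCB1, PDCB2 (listed as E13L3 in the RefSeq gene table), PDCB3, PDCB4 and PDCB5. None of these 5 has a probe set in that table, so they were not analysed here, and the values below belong to X8-domain genes for which the tables used here give only a locus code and no callose-binding name. The family was chosen by the difference between dexamethasone and mock of AT1G78520, whose rise in this same comparison was known when the loci were listed. All values of the 5 genes between dexamethasone and mock are therefore a description and support nothing by themselves.

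Callose is a beta-glucan that plants lay down in the wall around plasmodesmata, the channels that join neighbouring cells. Callose synthases make it and beta-glucanases break it down, and more callose at the channel neck narrows the passage. Several X8-domain proteins bind callose through this module, the PDCB proteins among them, and the same module also occurs at the end of many plant beta-glucanases. PLT2, the factor activated here, is a PLETHORA protein of the AP2-domain class that maintains the root meristem and promotes cell division there.

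All 6 arrays came from whole seedlings of 1 line, 35S-PLT2-GR, in which the broadly active 35S promoter drives PLT2 joined to a steroid-binding receptor domain. Seedlings aged 4 days went into flasks of about 50 seedlings in 50 ml of liquid medium and were shaken overnight. Then 3 flasks received DMSO (mock) and 3 received dexamethasone at 10 µM, which lets the fusion protein enter the nucleus, and all were harvested after 6 h. Mock and treated seedlings carry the transgene alike, and no dexamethasone-treated seedlings without it are among these arrays, so an effect of the steroid and one of the fusion cannot be told apart. The comparison addresses which transcripts differ 6 h after activation.

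Values are deposited log2 probe set values, 1 per array, and 17504 of 38408 probe sets have a gene. The array medians lay between 5.43 and 5.48 and the first quartiles, over all probe sets, between 3.05 and 3.24. The photosynthesis genes RCA and LHCB4.1, the 2 measured of 6 shoot markers, had mock means of 11.14 and 10.19. The root hair genes EXPA7 and EXPA18, the 2 measured of 5 root epidermis markers, had 6.21 and 6.17, so both shoot and root transcripts were present. EXPA7 was 2.34-fold lower, EXPA18 2.54-fold lower and RCA 1.25-fold lower with dexamethasone (limma adjusted p 0.00286, 0.00755 and 0.0475). LHCB4.1 was 1.17-fold lower and did not pass an adjusted p of 0.05 (limma adjusted p 0.12). The log2 of the summed root hair signal ran from 7.08 to 7.34 in mock and from 5.62 to 6.28 with dexamethasone. That of the summed shoot signal ran from 11.73 to 11.77 and from 11.40 to 11.53. The part of these shifts in the results below was not tested. Root cap, phloem, xylem and pollen markers and PLT2 itself were not analysed here. In whole seedlings fewer cells of a type and less RNA per cell cannot be told apart.

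AT1G78520 was far higher with dexamethasone, AT5G35740 was moderately lower, and the groups of the other 3 X8-domain genes overlapped. The mock arrays gave AT1G78520 log2 values of 5.68, 5.63 and 6.24, and the dexamethasone arrays gave 9.97, 10.25 and 10.29. The groups were far apart: the lowest dexamethasone value lay 3.73 above the highest mock value, while the values within a group spanned 0.61 in mock and 0.32 with dexamethasone. The difference was 4.32 (SE 0.18, 95% interval 3.88 to 4.75), or 19.9-fold. No array of either group fell under its own first quartile for this gene, so its mock values were not among the dimmest of the array. Mock replicate 3 was the highest of its group, and without it the difference was 4.51.

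**Figure D1:**
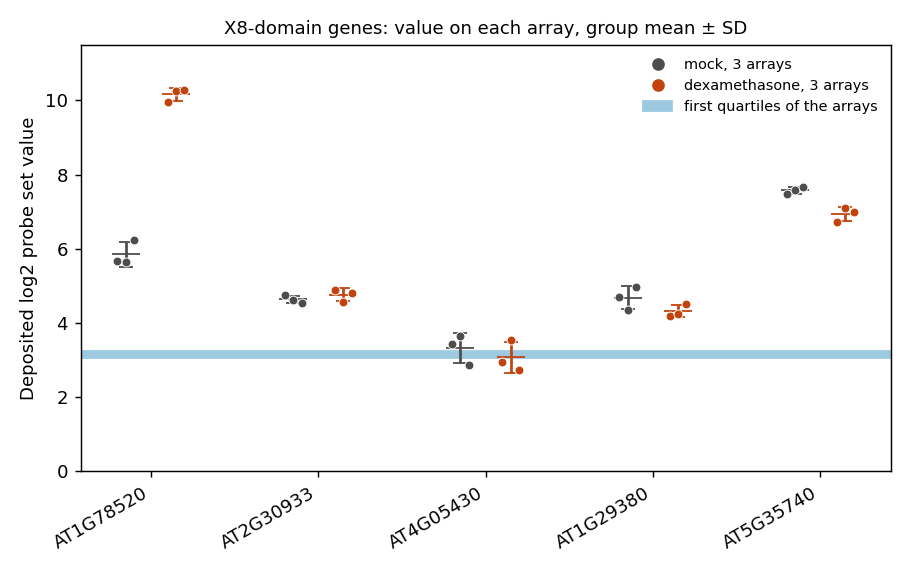
Deposited log2 values (vertical axis) of the 5 X8-domain genes on each array, with 3 mock and 3 dexamethasone points per gene, group means as horizontal marks and bars of 1 SD; the blue band spans the first quartiles of the 6 arrays, 3.05 to 3.24. AT1G78520 moves from 5.85 to 10.17 on average, the 2 groups of AT5G35740 also part, and those of the other 3 genes overlap.

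AT5G35740 went the other way. Its mock values were 7.48, 7.57 and 7.68, and its dexamethasone values were 6.72, 7.10 and 6.98. The groups did not overlap, with a gap of 0.38 between the lowest mock and the highest dexamethasone array. The mean fell by 0.64 on the log2 scale (SE 0.12, 95% interval -0.93 to -0.35), which is 1.56-fold lower. With 1 array left out the log2 difference ran from -0.73 to -0.54.

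AT1G29380 had mock values of 4.69, 4.36 and 4.98 and dexamethasone values of 4.20, 4.25 and 4.51. The highest dexamethasone array exceeded the lowest mock array, so the groups overlapped. Its difference of -0.36 had a 95% interval from -0.76 to 0.05. AT2G30933 gave 4.74, 4.63 and 4.53 in mock and 4.90, 4.57 and 4.81 with dexamethasone. These arrays are intermixed, and the difference of 0.13 had an interval from -0.15 to 0.41, so a change of 2-fold in either direction lies outside it.

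AT4G05430 was the dimmest and the most variable of the 5. Its values were 3.45, 3.65 and 2.86 in mock and 2.94, 3.54 and 2.75 with dexamethasone, and 3 of the 6 lay under the first quartile of their array. The difference of -0.24 had an interval from -0.87 to 0.38, the widest of the 3 genes without a call. Its arrays differed within a group by 0.79 in mock and 0.80 with dexamethasone, more than the difference between the groups. How far such values stand above background was not analysed here, which makes a fold near this level approximate.

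Across the 5 genes, 1 passed the limma threshold (adjusted p 0.05 over all probe sets with a gene) as higher and 1 as lower with dexamethasone. Over all 17504 probe sets 9.04% rose and 9.54% fell, 18.6% in all. The groups of 3 arrays did not overlap for 2 of the 5 genes, against 38.1% of all probe sets. The median difference of the 5 was -0.24, beside 0.02 over all probe sets, and the median size regardless of direction was 0.36, beside 0.21. Only AT1G78520 and AT2G30933 had a higher mean with dexamethasone. Nothing about the family is read from these counts, since it was chosen with results of this comparison known.

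**Figure D2:**
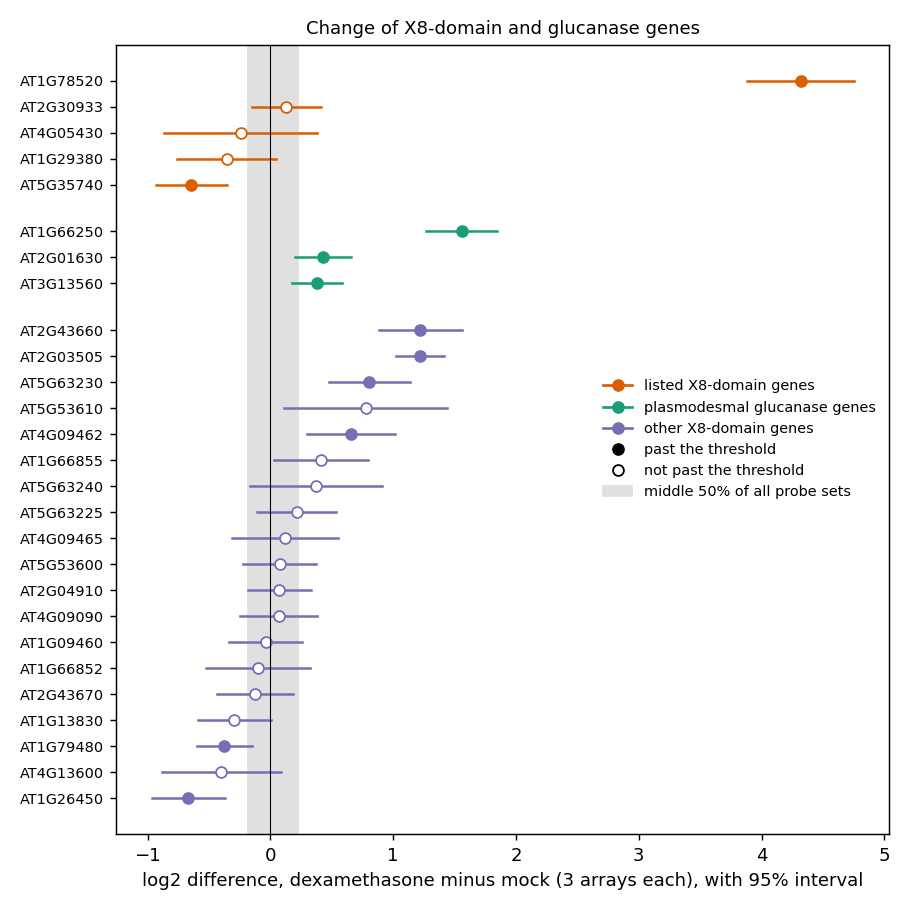
Log2 difference between dexamethasone and mock (horizontal axis, 3 arrays each) with its 95% interval for the 5 listed X8-domain genes (top), 3 plasmodesmal beta-glucanase genes (middle) and 19 other X8-domain genes (bottom); filled points passed the limma threshold, and the grey band holds the middle 50% of all probe sets, -0.18 to 0.22. AT1G78520 at 4.32 stands apart from the 4 other listed genes and from every other gene drawn, the next being AT1G66250 at 1.56.

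On the enzyme side of callose, 3 of 7 listed beta-glucanase genes were measured: AT1G66250, AT2G01630 and AT3G13560, listed for glucanases that act at plasmodesmata. All 3 rose, beside the background of 9.04%, but only the rise of AT1G66250 held whichever array was left out. AT1G66250 had values of 6.75, 6.79 and 6.71 in mock and 8.55, 8.24 and 8.14 with dexamethasone. Every treated array was above every mock array, and the rise was 2.94-fold (log2 difference 1.56, SE 0.12, adjusted p by limma 5.90e-04).

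AT2G01630 had 8.45, 8.22 and 8.39 in mock and 8.74, 8.82 and 8.79 with dexamethasone, a rise of 1.35-fold (adjusted p by limma 0.0231). AT3G13560 had 8.50, 8.56 and 8.60 against 8.98, 8.94 and 8.86, a rise of 1.30-fold (adjusted p by limma 0.025). The groups of both genes did not overlap, yet both shifts were small. In the fits that left out mock replicate 2, mock replicate 3, dexamethasone replicate 1 or dexamethasone replicate 2, 1 of the 3 genes passed, and without mock replicate 1 or dexamethasone replicate 3 it was 2. With 1 array left out the adjusted p ranged from 0.0485 to 0.0743 for AT2G01630 and from 0.0403 to 0.0923 for AT3G13560. The callose synthases (12 listed) and the PDLP plasmodesmata-located proteins (8 listed) were not analysed here.

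Other loci taken to be X8-domain genes were gathered by locus code from general knowledge, 23 in number, after the probe table and earlier results of these data were known, and 19 were measured. The tables used here hold no domain annotation, so their membership was not checked. Of the 19 loci, 4 rose, 2 fell and 13 did not pass, a share of 31.6% past the threshold beside 18.6% of all probe sets. Their median difference was 0.08. With 1 array left out, 3 or 4 rose and 1 fell.

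AT2G43660 and AT2G03505 rose most among them. AT2G43660 gave 3.90, 4.20 and 3.90 in mock and 5.45, 5.18 and 5.03 with dexamethasone, a rise of 2.33-fold (adjusted p by limma 0.00231). AT2G03505 gave 5.09, 5.15 and 5.12 against 6.30, 6.36 and 6.35, a rise of 2.32-fold (adjusted p by limma 3.26e-04). Both had groups set apart by more than the spread of their arrays, and AT2G03505 varied least, with an SD of 0.03 in each group (n = 3 each).

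AT1G26450 was the X8-domain gene that fell most. Its mock values of 5.18, 5.30 and 5.58 went to 4.61, 4.66 and 4.79, which is 1.59-fold lower (adjusted p by limma 0.0133), close in size to the fall of AT5G35740. AT1G79480 was 1.30-fold lower (adjusted p by limma 0.0348) and did not pass in any of the 6 fits with 1 array left out, where its adjusted p was 0.052 to 0.118.

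Of the 19 genes, 10 lay under the first quartile on all 6 arrays. Among these 10, AT5G63230 rose by 0.81 on the log2 scale and AT4G09462 by 0.66 (adjusted p by limma 0.0097 and 0.0255), the latter not past the threshold without mock replicate 2 or 3 or dexamethasone replicate 1 or 3 (0.0646 to 0.0827). Both went from mock means of 1.58 and 1.75 to 2.39 and 2.41, all below the first quartiles, so these folds are approximate. The other 9 genes, which were not under it on all 6 arrays, hold 2 that rose and 2 that fell. Of these 9, AT5G63240 still lay under the first quartile on 5 arrays and AT5G53610 on 4. AT5G53610, which did not pass (0.78, adjusted p by limma 0.105), passed without dexamethasone replicate 1. Its difference was then 1.07 and its adjusted p by limma 0.0274, and its fold is likewise approximate.

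**Figure D3:**
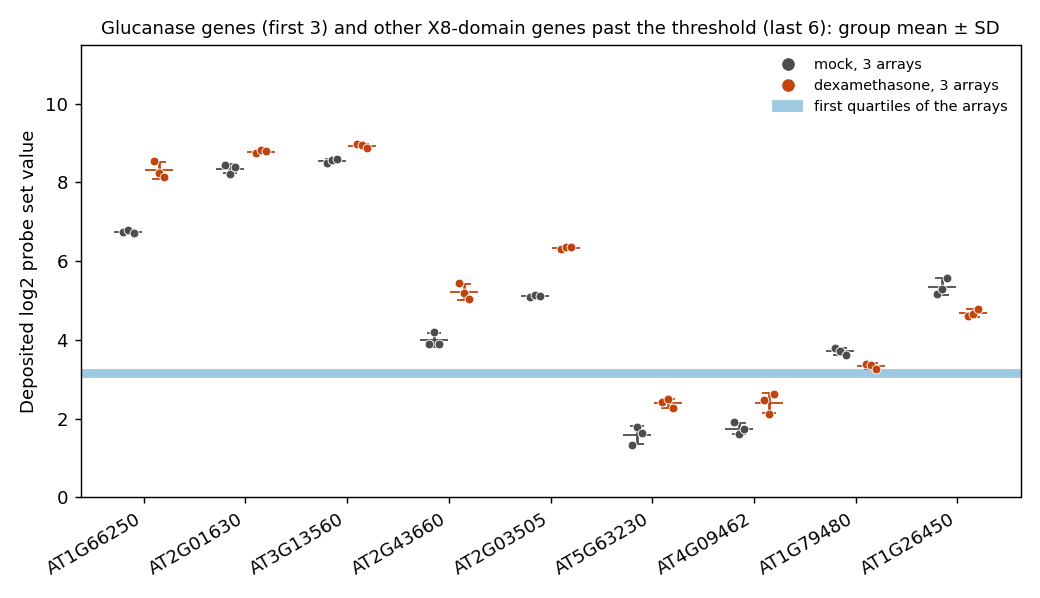
Deposited log2 values (vertical axis) on each array for the 3 measured plasmodesmal glucanase genes (left) and the 6 other X8-domain genes past the threshold (right), with 3 mock and 3 dexamethasone points per gene, group means as horizontal marks and bars of 1 SD. In each of the 9 genes the 2 groups are apart, as in 38.1% of all probe sets with a gene. For the 6 X8-domain genes the choice by the threshold favours this. AT5G63230 and AT4G09462 lie wholly below the blue band of first quartiles at 3.05 to 3.24.

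The genes whose values followed those of AT1G78520 most closely over the 6 arrays were found among the 16745 other probe sets with 1 gene. They were TRM24, AT2G20480, AT3G57160, AT1G25530 and AT1G72490, with Pearson correlations of 0.9984, 0.9983, 0.9982, 0.9981 and 0.9978. The points share their arrays and fall into 2 treatment groups, so any gene with a large rise and little spread scores high: 734 genes, 4.38% of those compared, had a correlation above 0.95. TRM24, named for a motif that recruits the microtubule-linked protein TON1, had 3.32, 3.52 and 3.68 in mock and 6.32, 6.58 and 6.54 with dexamethasone, a 7.88-fold difference. AT1G72490 was 5.45-fold higher, AT3G57160 4.41-fold, AT1G25530 3.06-fold and AT2G20480 1.86-fold higher. Each of the 5 had a smaller difference than AT1G78520. In each of them mock replicate 3 was the highest mock array, as it was for AT1G78520, an order that the choice by correlation favours.

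**Figure D4:**
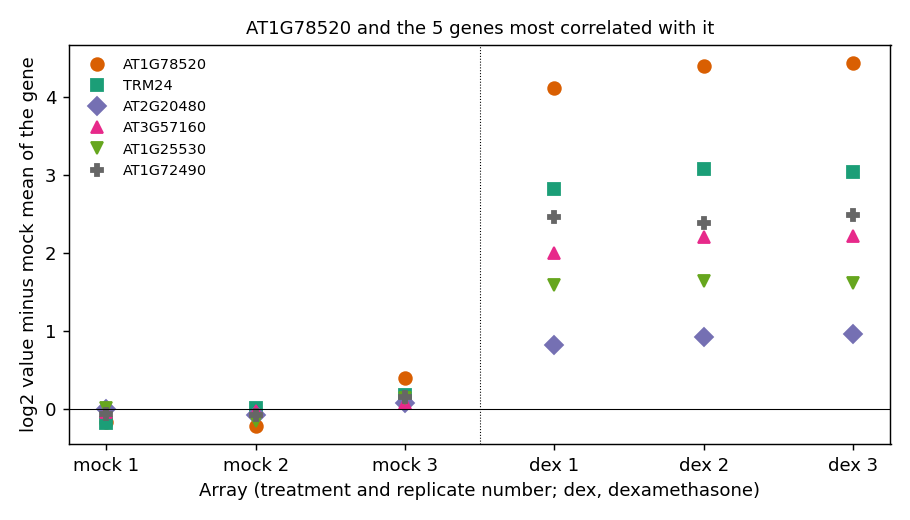
Log2 value minus the mock mean of the same gene (vertical axis) on each of the 6 arrays for AT1G78520 and the 5 genes most correlated with it. Mock replicate 3 is the highest mock array for all 6 genes, an order that the choice by correlation favours. The treated values range from 0.82 for AT2G20480 to 4.44 for AT1G78520.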

How the data were processed

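Each array has 1 deposited log2 value per probe set. Per the submitters' processing notes RMA and limma 3.24.15 were used, in roles those notes do not state. Genome build and probe summary level are likewise not given in the sources used here. No coordinates are printed, and no sequences, since none were among the sources used here. The platform's probe table pairs 16746 probe sets with 1 gene and 758 with several; 20904 have no gene there and stayed out of the main test. Genes were joined to loci by gene ID through the RefSeq table of TAIR10.1, which matched 16601. Whether a probe set also binds similar X8-domain transcripts was not checked.

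Groups were compared as dexamethasone minus mock with limma 3.58.1 in R 4.3.3 (lmFit, eBayes, two-sided), adjusted by Benjamini-Hochberg over 17504 probe sets. SE and 95% intervals are moderated, SD is over 3 arrays, and folds are the log2 differences on the linear scale. The labels call the 3 flasks of a group biological replicates. Precision is limited by the number of arrays. The code was tested on simulated data.

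The members, gene lists and tests were chosen with earlier results of these data known. The rule for named genes took every measured member, up to 3 called genes of each callose list and the 5 genes most correlated with AT1G78520; those named from the list of other X8-domain genes, and the chromosomal neighbours, were chosen after their values were seen. A planned search of gene names for further glucanase and X8 genes found 3 loci, none measured. Planned comparisons of protein and promoter sequence were not run. Alternatives were a replicate block, quantile normalization, median centring, leaving out the dimmest 30%, an intensity trend, robust eBayes, array weights, all probe sets, 1 probe set per gene, and each array left out in turn.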

Additional observations from a re-analysis of the deposited data

How the results depend on the processing

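In each of the 15 alternatives 1 listed X8-domain gene rose and 1 fell, AT1G78520 with differences of 4.21 to 4.51 and AT5G35740 with -0.73 to -0.54. The adjusted p of AT5G35740 came close to the threshold, at 0.0489 at most. The other 3 listed genes passed in none, with a lowest adjusted p of 0.0827 for AT1G29380; AT4G05430 was not tested without the dimmest 30%. The median of the listed genes was -0.33 to -0.08. Of the glucanase genes, 3 passed in the alternatives that keep all arrays, except that 1 passed with the replicate block (adjusted p 0.0633 for AT2G01630 and 0.073 for AT3G13560); with 1 array left out 1 to 2 passed. Over all probe sets with a gene, leaving out 1 array gave 1724 to 2477 calls, 828 to 1168 that rose and 896 to 1309 that fell, with fewer arrays in the fit, and the replicate block gave 2417. When probe sets without a gene were fitted too, 2423 of 38408 rose, beside 1582 of 17504 in the main fit. Deviations from the group means, over all probe sets with a gene, correlated between arrays of the same number at -0.00987, -0.0163 and 0.0305. By the same measure 2 of 6 arrays correlated best with their own number. The labels give these arrays a shared number only, and whether they also share a batch was not tested. Of the other X8-domain genes, AT1G79480 did not pass with the replicate block, median centring, the trend or all probe sets (adjusted p 0.0619, 0.0542, 0.172 and 0.0542), AT5G53610 passed with the block (0.0249) and the trend (0.0493), and without the dimmest 30% 2 rose, since AT5G63230 and AT4G09462 were not tested. The cause was not tested where none is given.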

Other observations

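Protein-coding genes within 3 places on each side of the listed X8-domain genes were looked up, in the order of the RefSeq gene table. Non-coding genes were left out of that order. Of 20 probe sets measured for these neighbours 3 rose and 1 fell, beside 18.6% past the threshold over all probe sets, and their differences ran from -1.17 to 0.47. Those that rose were AT4G05400 (0.46) and YAO (0.47), near AT4G05430, and AT5G35732 (0.34), near AT5G35740, with adjusted p by limma of 0.0219, 0.0219 and 0.0367. Next to AT1G78520, AT1G78530 had a difference of -0.22 (adjusted p by limma 0.439), with mock values of 3.51, 3.43 and 3.99 and dexamethasone values of 3.40, 3.27 and 3.61. Its groups overlapped, so this adjacent protein-coding gene did not show the 19.9-fold difference of AT1G78520. The neighbour on the other side was not analysed here. The neighbour that fell was AT2G30930, the protein-coding gene next to AT2G30933 in that order. It gave 8.62, 8.46 and 8.64 in mock and 7.47, 7.61 and 7.12 with dexamethasone, a fall of 1.17 on the log2 scale (adjusted p by limma 0.00258), while AT2G30933 itself differed by 0.13.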
